A study of Arabidopsis thaliana with 12 samples.

Results

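The mitochondrial genome of Arabidopsis thaliana encodes several parts of the machinery that matures c-type cytochromes, and one subunit of a protein translocase. The 6 genes described are ccmB (ATMG00110), ccmC (ATMG00900), ccmFC (ATMG00180), ccmFN1 (ATMG00830), ccmFN2 (ATMG00960) and mttB (ATMG00570). They were chosen by locus identifier among 33602 gene models, of which 122 were mitochondrial models with the rRNA models and those shorter than 100 bases left out. Total RNA depleted of ribosomal RNA was sequenced from soil-grown plants, and each sample combined flower buds, rosette and stem. There were 4 groups of 3 libraries, titled as plants heterozygous for a mutation in DYW2, homozygous for it, heterozygous for a mutation in NUWA, and homozygous for it. The series describes a gene knock out, and the heterozygous plants, which also carry a mutant allele, served as the comparison. No wild-type group was titled as such. The sources used here give neither the position of the mutations nor whether homozygous plants carried a rescue construct. DYW2 and NUWA are pentatricopeptide repeat proteins that take part in editing of organelle transcripts.

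In plant mitochondria, haem is attached to c-type cytochromes in the intermembrane space by a pathway of bacterial origin. CcmB is a membrane subunit of an ABC transporter, CcmC handles haem and passes it to the chaperone CcmE, and the CcmF proteins, which in Arabidopsis are split over 3 genes, join haem to the apocytochrome. MttB is a homologue of the bacterial TatC protein, a subunit of a translocase for folded proteins. Transcripts of these genes are heavily edited in flowering plants, cytidines being converted to uridines before translation.

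The genes differed in how densely they are edited and in how much of their sequence is found elsewhere. Positions are those of the RefSeq mitochondrial genome of TAIR10.1, written MT. ccmB (MT:17814-18434, minus strand, 1 exon) has 51 annotated editing positions in a coding length of 621 bases, or 8.21 per 100 bases. mttB (MT:218904-219746, minus strand, 1 exon) has 44 in 843 bases, or 5.22 per 100. ccmC (MT:308298-309068, plus strand, 1 exon) has 34 in 771 bases, or 4.41 per 100. The ccmF genes are the least densely edited of the 6. ccmFN1 (MT:316013-317161, plus strand, 1 exon) has 28 positions, or 2.44 per 100 bases. ccmFN2 (MT:291580-292191, plus strand, 1 exon) has 14, or 2.29 per 100. ccmFC (MT:189483-191770, plus strand, 2 exons) has 30, or 2.26 per 100. Not every position counts alike, since the annotation marks some as edited at minor frequency: 35 of the 51 in ccmB and 10 of the 14 in ccmFN2 are not so marked. Of those, 34 in ccmB and all 10 in ccmFN2 change the encoded amino acid. Editing itself was not measured, because the deposited values are counts of reads and not bases.

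The stretches of 150 bases that hold the most annotated editing positions in ccmB, mttB, ccmFN1 and ccmFN2 show this difference. Each is on the coding strand of the DNA, 5′ to 3′, from RefSeq TAIR10.1, with each cytidine annotated as edited in capitals. They lie at MT:18242-18391 (minus strand, 22 positions), MT:219260-219409 (minus strand, 15 positions), MT:316263-316412 (plus strand, 9 positions) and MT:291786-291935 (plus strand, 8 positions).
ccmB: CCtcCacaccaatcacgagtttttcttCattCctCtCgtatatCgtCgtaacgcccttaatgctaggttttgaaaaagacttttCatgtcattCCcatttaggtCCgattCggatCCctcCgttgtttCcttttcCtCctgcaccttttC
mttB: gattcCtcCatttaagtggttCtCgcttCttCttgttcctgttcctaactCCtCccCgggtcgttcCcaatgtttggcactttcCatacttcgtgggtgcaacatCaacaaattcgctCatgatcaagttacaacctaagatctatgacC
ccmFN1: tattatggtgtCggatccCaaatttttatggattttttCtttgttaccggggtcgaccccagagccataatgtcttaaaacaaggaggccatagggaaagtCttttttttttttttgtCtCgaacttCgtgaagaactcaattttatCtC
ccmFN2: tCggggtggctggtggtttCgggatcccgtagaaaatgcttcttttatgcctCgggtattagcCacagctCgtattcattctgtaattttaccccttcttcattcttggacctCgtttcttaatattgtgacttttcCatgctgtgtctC
In the ccmB stretch the capitals stand close together, often side by side. In the ccmFN2 stretch long runs hold none.

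All of the genes except ccmB have a near-identical copy in a block of mitochondrial sequence on chromosome 2. The deposited counts left out every read whose best and second-best alignment scored the same, so a gene with an identical copy could lose its reads. ccmB had no copy, and 100% of its 100-base windows occurred nowhere else in TAIR10.1. The ccmC sequence recurs in full on chromosome 2 (3239693 to 3240463, minus strand, 771 of 771 bases), and a further copy matches at 770 of 771 bases (3290231 to 3291001, plus strand). The ccmFC region recurs over all of its 2288 bases (3441951 to 3444238, minus strand), so 0% of its windows and 0% of those of ccmC were unique. For ccmFN1, ccmFN2 and mttB a single alignment column distinguished each gene from its copy, and 5.14%, 18.9% and 3.76% of their 100-base windows were unique. ccmFN1 and its copy, and ccmFN2 and its copy, are given around that column (MT:316036-316096 and MT:291791-291851, and chromosome 2, 3297913 to 3297973 and 3273755 to 3273814, plus strand throughout), with the base that is changed or missing in the other sequence in capitals.
ccmFN1, mitochondrial genome: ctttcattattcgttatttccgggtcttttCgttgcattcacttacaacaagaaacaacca
ccmFN1, chromosome 2 copy: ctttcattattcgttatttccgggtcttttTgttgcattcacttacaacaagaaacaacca
ccmFN2, mitochondrial genome: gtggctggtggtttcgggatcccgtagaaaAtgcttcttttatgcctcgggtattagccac
ccmFN2, chromosome 2 copy: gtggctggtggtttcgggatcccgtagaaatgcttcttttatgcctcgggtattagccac
Only a read that crosses the capital base can be told from one of the copy. The submitters' processing notes name TAIR10, whose mitochondrial sequence may not be that of TAIR10.1. ccmFC had counts in every library although none of its windows was unique here, so the shares above are those of TAIR10.1 and not necessarily those of the mapping.

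**Figure D1:**
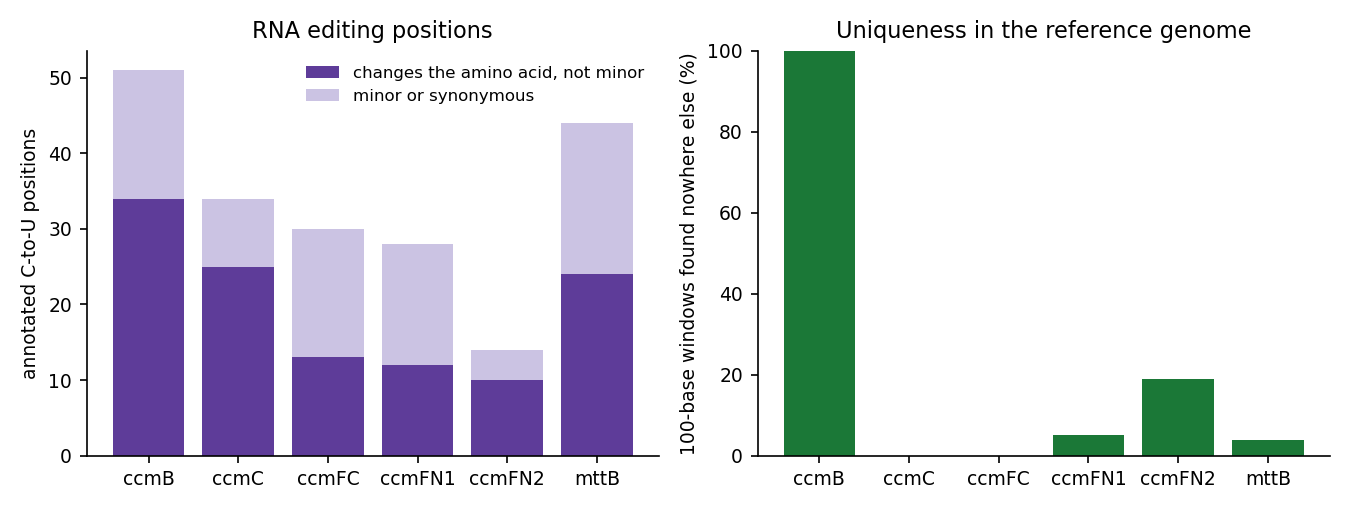
Left, annotated cytidine-to-uridine editing positions in each gene, split into those that change the amino acid and are not marked as minor (dark) and the rest (light). Right, percent of 100-base windows of the coding sequence that occur nowhere else in TAIR10.1. ccmB has the most editing positions, 51, and is the only gene of the 6 whose windows are all unique.

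Library totals ranged from 13329334 to 97804029 counts, and were lowest in the 3 libraries titled dyw2 homozygous. Mitochondrial genes took 2.83% to 3.01% of counts in those 3 libraries, 0.490% to 0.586% in those titled nuwa homozygous and 0.306% to 0.385% in the heterozygous ones. The plastid share moved too, at 26.6% to 32.5% in the libraries titled dyw2 homozygous and 57.2% to 66.9% in the other 9. Of the counts that were not plastid, mitochondrial genes took 4.10% to 4.20% in the libraries titled dyw2 homozygous, 1.36% to 1.49% in those titled nuwa homozygous and 0.849% to 0.902% in the heterozygous ones. The share of mapped reads removed for equal scores was 5.94% to 6.06% in the libraries titled dyw2 homozygous and 2.54% to 3.39% in the other 9. Of the homozygous libraries, 2 have a genotype field that conflicts with their title: replicate 2 titled dyw2 is recorded under nuwa, and replicate 3 titled nuwa is recorded under dyw2. Their mitochondrial shares, 2.87% and 0.586%, were close to those of the libraries with the same title, and the titles were followed. Neither targeted transcript was lower in its own homozygous libraries, with a log2 fold change of 0.67 ± 0.18 (SE, edgeR adjusted p = 0.00561) for DYW2 between the dyw2 groups and 0.81 ± 0.38 (SE, edgeR adjusted p = 0.269) for NUWA between the nuwa groups. NUWA stood at 4.44, 3.63 and 5.01 CPM (counts scaled to a normalised library size of 1000000) in dyw2 homozygous replicates 1, 2 and 3 and at 0.761, 1.34 and 1.26 CPM in the nuwa homozygous ones, so each library of conflicting genotype lay with the others of its title. It was called higher in the dyw2 comparison (2.03 ± 0.36, SE, edgeR adjusted p = 0.00048), as was DYW2 in the nuwa comparison (1.04 ± 0.18, SE, edgeR adjusted p = 0.0148). Levels of some tissue markers also differed. All 8 flower bud markers were detected in most libraries, and their summed level was 41.5 to 108 CPM in the heterozygous libraries, 5.35 to 10.5 in those titled dyw2 homozygous, and 8.54, 3.59 and 60.7 in nuwa homozygous replicates 1, 2 and 3. At most 2 of the 8 were at 0 in any library. The 6 tapetum markers of the anther summed to 16.0 to 95.2 CPM in the heterozygous libraries, to 43.5 in nuwa homozygous replicate 3 and to at most 0.134 in the other homozygous ones, where 3 to 6 were at 0. The 5 leaf markers were all nuclear genes of photosynthesis. Their summed level was 2250 to 3590 CPM in the libraries titled dyw2 homozygous and 18400 to 26300 in the others, with none of the 5 at 0. The 6 stem markers overlapped between groups. They summed to 6.58 to 21.6 CPM in the heterozygous libraries, 5.11 to 10.4 in those titled dyw2 homozygous and 7.18 to 18.8 in those titled nuwa homozygous. In these mixed samples, fewer cells of a type and less RNA per cell cannot be told apart. The samples of a group are described as biological replicates. If they shared plants, the p-values cover only the spread among these libraries, which may be technical.

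All 5 measurable genes were higher in the libraries titled dyw2 homozygous than in those titled dyw2 heterozygous. The size of the rise ran from 3.1-fold for ccmB to 14.0-fold for ccmFN1. ccmC had 0 counts in all 12 libraries and was not tested. A count of 0 allows up to 3 counts, which is 0.0307 to 0.225 per 1000000 counts depending on the library and covers counting error only, and it says nothing of reads removed for equal scores. Levels are given in CPM.

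ccmB, the transporter subunit, stood at 31.8, 37.8 and 38.7 CPM in the libraries titled dyw2 heterozygous and at 104, 118 and 114 CPM in those titled dyw2 homozygous. The groups did not overlap, and every homozygous library was above every heterozygous one by a wide margin. The log2 fold change was 1.63 ± 0.14 (SE, edgeR adjusted p = 2.66e-06, n = 3 per group). It was the smallest rise among the 5 genes.

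ccmFC, which encodes the C-terminal part of CcmF, stood at 3.11, 3.48 and 2.90 CPM in the heterozygous libraries and at 15.9, 17.1 and 15.7 CPM in the homozygous ones. The groups were tight and far apart. This was a 5.14-fold rise, with a log2 fold change of 2.36 ± 0.11 (SE, edgeR adjusted p = 1.27e-07).

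ccmFN1, one of the genes for the N-terminal part of CcmF, had the largest rise of the 5. It stood at 1.07, 1.06 and 1.06 CPM in the heterozygous libraries, from 57, 57 and 64 counts, and at 15.2, 13.5 and 16.1 CPM in the homozygous ones, from 451, 685 and 529 counts. The heterozygous libraries were nearly identical, and the lowest homozygous library was far above them. Its log2 fold change was 3.81 ± 0.17 (SE, edgeR adjusted p = 9.38e-08).

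ccmFN2, the other gene for the N-terminal part, stood at 0.487, 0.630 and 0.594 CPM in the heterozygous libraries, from only 26, 34 and 36 counts. The homozygous libraries held 7.37, 2.75 and 10.1 CPM, from 219, 139 and 333 counts. The groups did not overlap, but replicate 2, one of the libraries with a conflicting genotype field, lay well below the other two. Its log2 level was 1.64 under the mean of replicates 1 and 3 (difference -1.64), which was the lowest value of that difference among the 76 mitochondrial genes tested. The other 4 genes were not low in that library, with differences from -0.20 (ccmFN1) to 0.15 (mttB). For ccmFN2 the log2 fold change was 3.55 ± 0.46 (SE, edgeR adjusted p = 4.71e-05), or 11.7-fold, and 3.93 ± 0.34 (SE, edgeR adjusted p = 1.43e-05), or 15.2-fold, without replicate 2. Without homozygous replicate 1 it was 3.48 (edgeR adjusted p = 0.000254), or 11.2-fold. Without homozygous replicate 3 it was 3.13 ± 0.44 (SE, edgeR adjusted p = 0.000192), or 8.77-fold.

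mttB, the translocase subunit, stood at 5.41, 5.52 and 5.06 CPM in the heterozygous libraries and at 23.5, 27.4 and 25.9 CPM in the homozygous ones. The groups did not overlap. The log2 fold change was 2.27 ± 0.13 (SE, edgeR adjusted p = 2.69e-07), or 4.81-fold, close to that of ccmFC.

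These 5 of 5 calls stand against a background in which 30.1% of all 21213 tested genes, and 96.1% of the 76 tested mitochondrial genes, were called higher. A rise was therefore usual for a mitochondrial gene in this comparison. The median log2 fold change of the 5 genes was 2.36, beside 2.49 over the mitochondrial genes and -0.05 over all genes. Ordered from the largest rise among the 76, ccmFN1 was at place 17, ccmFN2 at 23, ccmFC at 43, mttB at 46 and ccmB at 60. Without both libraries of conflicting genotype all 5 were still called, with log2 fold changes of 1.59 (ccmB), 2.32 (ccmFC), 3.88 (ccmFN1), 3.93 (ccmFN2) and 2.21 (mttB). With the groups taken from the genotype field in place of the title, none of the 5 was called, although all 5 log2 fold changes were positive, from 1.26 (ccmB, adjusted p = 0.169) to 3.43 (ccmFN2, adjusted p = 0.129). With the flower bud score in the model all 5 were called, from 1.60 ± 0.19 (SE) for ccmB to 3.63 ± 0.21 (SE) for ccmFN1. That score, a mean log2 CPM, was 1.28 to 2.85 in the dyw2 heterozygous libraries and -1.65 to -0.23 in the homozygous ones. In the nuwa libraries it was 2.17 to 2.92 and -2.74 to 2.07. Neither pair of ranges overlapped, so a model with the score cannot fully tell it from the genotype in either comparison. The part of the removed reads and of the leaf markers in these results was not tested.

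**Figure D2:**
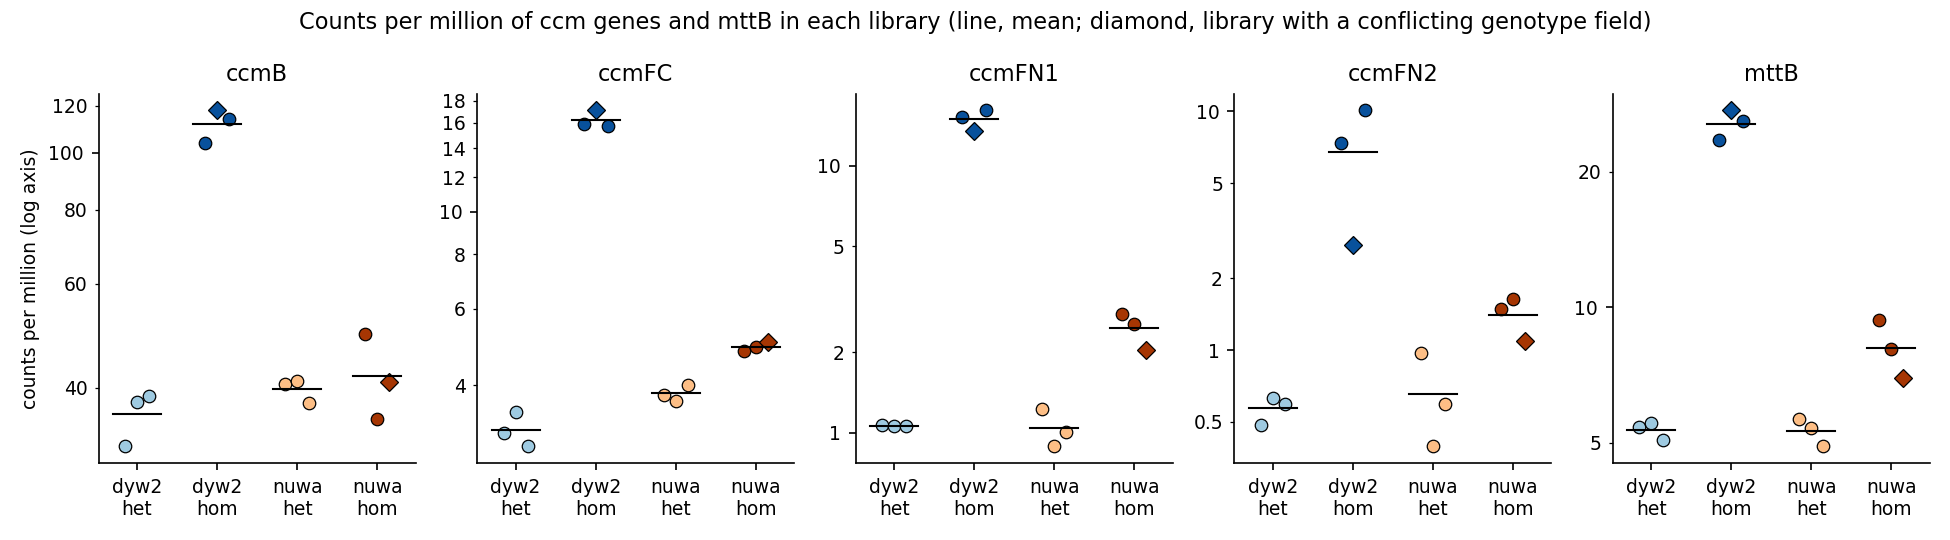
CPM of 5 genes in each of the 12 libraries, on a log axis that differs by gene. Points are libraries, lines are group means, and diamonds are the 2 libraries whose genotype field names the other mutant. The libraries titled dyw2 homozygous lie above all others for every gene, with ccmFN2 most spread.

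Between the nuwa groups the same genes changed less, and only ccmFN1 and mttB passed the test. ccmFN1 stood at 1.23, 0.891 and 1.01 CPM in the libraries titled nuwa heterozygous and at 2.78, 2.55 and 2.05 CPM in those titled nuwa homozygous. The groups did not overlap, and replicate 3 was the lowest of the homozygous libraries. The log2 fold change was 1.24 ± 0.16 (SE, edgeR adjusted p = 0.00522), or 2.36-fold. Without both libraries of conflicting genotype it was 1.36 ± 0.17 (SE, edgeR adjusted p = 0.00416), and with the flower bud score in the model it was 1.02 ± 0.23 (SE) and no longer called (edgeR adjusted p = 0.0749).

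mttB stood at 5.65, 5.39 and 4.91 CPM in the nuwa heterozygous libraries and at 9.35, 8.08 and 6.97 CPM in the homozygous ones. Again the groups did not overlap and homozygous replicate 3 was the lowest. The rise was 1.53-fold, with a log2 fold change of 0.61 ± 0.13 (SE, edgeR adjusted p = 0.0324). This call was lost when any one of 8 libraries was left out, namely all 3 titled dyw2 homozygous, all 3 titled nuwa heterozygous, and nuwa homozygous replicates 1 and 2, with edgeR adjusted p from 0.0501 to 0.122. It was also lost with the flower bud score in the model, at 0.41 ± 0.18 (SE, edgeR adjusted p = 0.333).

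The remaining 3 genes did not pass. ccmFC stood at 3.81, 3.68 and 4.02 CPM in the nuwa heterozygous libraries and at 4.81, 4.90 and 5.02 CPM in the homozygous ones, without overlap. Its log2 fold change was 0.36 ± 0.11 (SE, edgeR adjusted p = 0.112), and DESeq2 called it (0.39, adjusted p = 0.0486). ccmFN2 stood at 0.968, 0.395 and 0.592 CPM against 1.48, 1.64 and 1.09 CPM. These groups did not overlap either, but they rest on 27 to 62 counts per library and heterozygous replicate 1 was close to homozygous replicate 3. The log2 fold change of ccmFN2 was 1.12 ± 0.45 (SE, edgeR adjusted p = 0.209), and without both libraries of conflicting genotype 1.28 ± 0.33 (SE, edgeR adjusted p = 0.0478), which passes. ccmB stood at 40.6, 41.1 and 37.7 CPM against 49.3, 35.4 and 40.8 CPM, and the groups overlapped. Its log2 fold change was 0.07 ± 0.14 (SE, edgeR adjusted p = 0.812), and it turned to -0.06 without nuwa homozygous replicate 1.

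Over all genes 1.54% were called higher in this comparison, and 28.9% of the mitochondrial genes were, beside 2 of the 5 genes here. The median log2 fold change of the 5 was 0.61, that of the mitochondrial genes 0.71 and that of all genes -0.02. Among the 76 mitochondrial genes ccmFN1 was at place 15 from the largest rise, ccmFN2 at 21, mttB at 43, ccmFC at 63 and ccmB at 71. With the groups taken from the genotype field, none was called.

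The difference between the effects of the mutants was tested directly, as the dyw2 log2 fold change minus the nuwa one. All 5 genes rose more in the dyw2 comparison. The difference was 1.56 ± 0.20 (SE, edgeR adjusted p = 0.000113) for ccmB, 2.01 ± 0.15 (1.48e-05) for ccmFC and 1.65 ± 0.18 (4.41e-05) for mttB. For the CcmF N-terminal genes it was 2.57 ± 0.23 (2.08e-05) for ccmFN1 and 2.43 ± 0.63 (0.00938) for ccmFN2. Of all genes 19.2%, and of the mitochondrial genes 78.9%, were called with a larger change in dyw2. Without both libraries of conflicting genotype the 5 differences lay between 1.50 and 2.65 and all were called. With the groups taken from the genotype field none was (adjusted p = 0.978 for each). Averaged over both mutants, all 5 genes were called higher too, from 0.85 ± 0.10 (SE) for ccmB to 2.53 ± 0.12 (SE) for ccmFN1, beside 23.3% of all genes and 88.2% of mitochondrial ones.

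**Figure D3:**
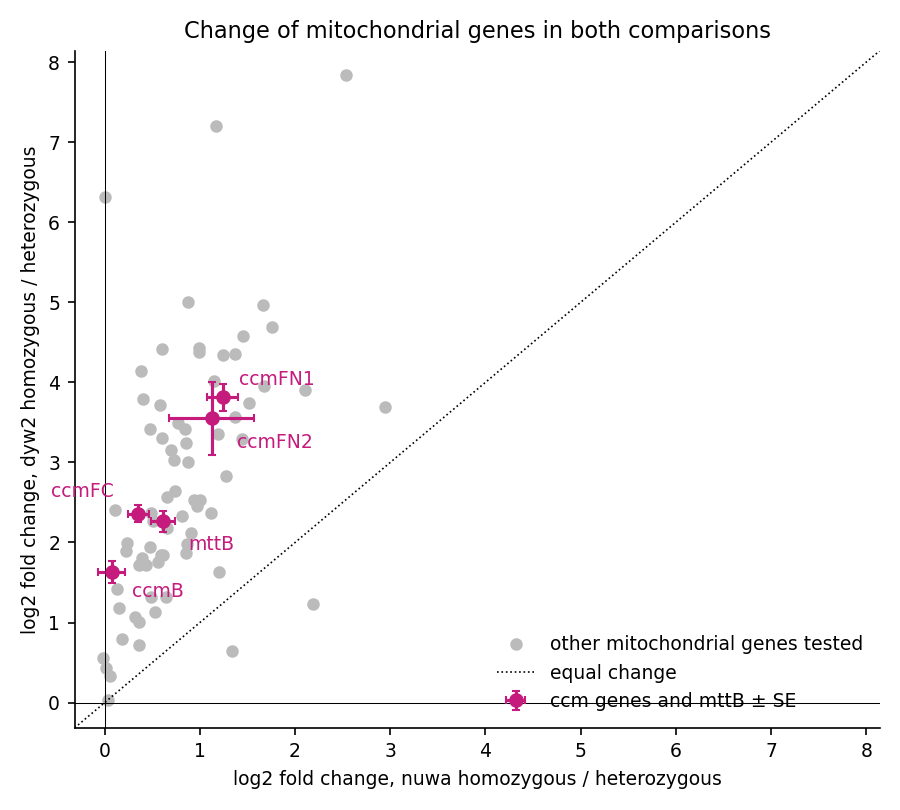
Log2 fold change of the 76 tested mitochondrial genes, homozygous over heterozygous, in the dyw2 comparison (vertical) against the nuwa comparison (horizontal). Each grey point is a gene, the coloured points are the 5 genes with bars of 1 SE in each direction, and the dotted line marks equal change. The 5 lie above the line, with ccmB lowest and ccmFN1 highest.

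The heterozygous groups served as a check of the level from which each change was measured. None of the 5 genes differed between them in edgeR's quasi-likelihood test, 1 of 5 at an unadjusted p under 0.05 (ccmFC) and 0 by DESeq2, where 0.132% of all genes were called. ccmB had a log2 difference, dyw2 minus nuwa heterozygous, of -0.14 ± 0.14 (SE, edgeR adjusted p = 0.924), and ccmFC one of -0.28 ± 0.11 (SE, edgeR adjusted p = 0.698). The values of ccmFN1, ccmFN2 and mttB were 0.03 ± 0.17, -0.17 ± 0.46 and 0.00 ± 0.13 (SE).

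Levels of the genes can be set beside each other only per length, as CPM divided by the length in kilobases (RPKM), and even then the reads lost to copies differ by gene. In the libraries titled dyw2 heterozygous ccmB stood at 58.1 ± 6.06 RPKM (SD, n = 3), mttB at 6.19 ± 0.278 and ccmFC at 2.33 ± 0.216. The N-terminal CcmF genes were lowest, at 0.922 ± 0.00639 for ccmFN1 and 0.931 ± 0.121 for ccmFN2, which did not differ beyond their spread. The same order held in the nuwa heterozygous libraries, with 64.1 ± 2.92 RPKM for ccmB, 6.18 ± 0.439 for mttB and 2.82 ± 0.127 for ccmFC. There ccmFN1 and ccmFN2 were again not apart, at 0.909 ± 0.151 and 1.06 ± 0.476. In the libraries titled dyw2 homozygous ccmB was at 180 ± 11.7 RPKM and mttB at 29.8 ± 2.29. The CcmF genes came together there, with ccmFN1 at 13.0 ± 1.11, ccmFC at 12.0 ± 0.539 and ccmFN2 at 11.0 ± 6.08, none apart from its neighbour beyond the spread. In the libraries titled nuwa homozygous the values were 67.4 ± 11.3 RPKM for ccmB, 9.45 ± 1.38 for mttB and 3.61 ± 0.0784 for ccmFC. ccmFN2 and ccmFN1 followed at 2.29 ± 0.46 and 2.14 ± 0.328.

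Since mitochondrial transcripts rose as a whole in the libraries titled dyw2 homozygous, each gene was also tested against the mitochondrial total of its library. ccmB made up 8.13, 8.69 and 9.62 of every 1000 mitochondrial counts in the dyw2 heterozygous libraries and 7.68, 8.43 and 8.12 in the homozygous ones. The groups overlapped, and the log2 fold change relative to the total was -0.13 ± 0.11 (SE, edgeR adjusted p = 0.314). ccmFN1 rose, from 0.273, 0.243 and 0.262 per 1000 to 1.12, 0.969 and 1.14. Its relative log2 fold change was 2.06 ± 0.17 (SE, edgeR adjusted p = 2.79e-07), or 4.15-fold. ccmFN2 held 0.125, 0.145 and 0.147 per 1000 in the heterozygous libraries and 0.545, 0.197 and 0.719 in the homozygous ones. Replicate 2 was again the low library, close above the heterozygous range, and the relative log2 fold change was 1.80 ± 0.45 (SE, edgeR adjusted p = 0.00246). ccmFC rose from 0.795, 0.800 and 0.721 to 1.18, 1.22 and 1.12 per 1000, and mttB from 1.38, 1.27 and 1.26 to 1.74, 1.96 and 1.84. Neither overlapped between groups, and their relative log2 fold changes were 0.61 ± 0.13 (SE, edgeR adjusted p = 0.000687) and 0.51 ± 0.12 (SE, edgeR adjusted p = 0.00132).

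In all, 4 of the 5 genes were called higher relative to the mitochondrial total, where 4.63% of all genes and 60.5% of mitochondrial genes were. The share over all genes depends on this scale and is no measure of how rare such a call is. Under it the median log2 fold change was -1.81 over all genes and 0.73 over mitochondrial genes. The call depends on the yardstick for ccmFC, mttB and ccmB. When libraries were scaled by the median ratio over mitochondrial genes, which gives a few abundant transcripts less weight than the total does, ccmFC was at -0.02 and mttB at -0.12 (edgeR adjusted p = 0.898 and 0.424), and ccmB was lower at -0.75 (edgeR adjusted p = 0.000614). ccmFN1 and ccmFN2 were called higher under every yardstick and alternative tried. With the groups taken from the genotype field, these 2 were the only ones called.

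Relative to the mitochondrial total, the nuwa comparison gave changes in both directions. ccmB held 9.56, 9.41 and 8.49 of every 1000 mitochondrial counts in the nuwa heterozygous libraries and 6.21, 5.23 and 6.22 in the homozygous ones. The groups did not overlap, and the relative log2 fold change was -0.64 ± 0.12 (SE, edgeR adjusted p = 0.00107). ccmFC was lower too, at 0.898, 0.843 and 0.905 against 0.606, 0.724 and 0.765 per 1000, by a log2 fold change of -0.34 ± 0.13 (SE, edgeR adjusted p = 0.0353). ccmFN1 was higher, at 0.291, 0.204 and 0.227 against 0.351, 0.377 and 0.312 per 1000, by 0.53 ± 0.17 (SE, edgeR adjusted p = 0.0197). ccmFN2 and mttB had relative log2 fold changes of 0.41 ± 0.45 and -0.10 ± 0.12 (SE), which did not pass. Of the mitochondrial genes 11.8% were called higher and 14.5% lower, beside 1 and 2 of these 5, and of all genes 0.467% and 64.3%. The shares over all genes depend on this scale, under which the median log2 fold change of all genes was -0.72. With so many genes called, adjustment over all genes was mild. The unadjusted p in the edgeR test was 0.0212 for ccmFC and 0.0102 for ccmFN1. The calls of ccmFC and ccmFN1 were lost with the flower bud score in the model (edgeR adjusted p = 0.405 and 0.228), as well as without any one of 4 and of 3 libraries. These were nuwa heterozygous replicates 1 and 3 and homozygous replicates 1 and 2 for ccmFC, and nuwa heterozygous replicates 2 and 3 and homozygous replicate 2 for ccmFN1. That of ccmB remained without each library in turn and with that score in the model (-0.55, edgeR adjusted p = 0.0496), and was lost with the groups of the genotype field (adjusted p = 0.2).

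**Figure D4:**
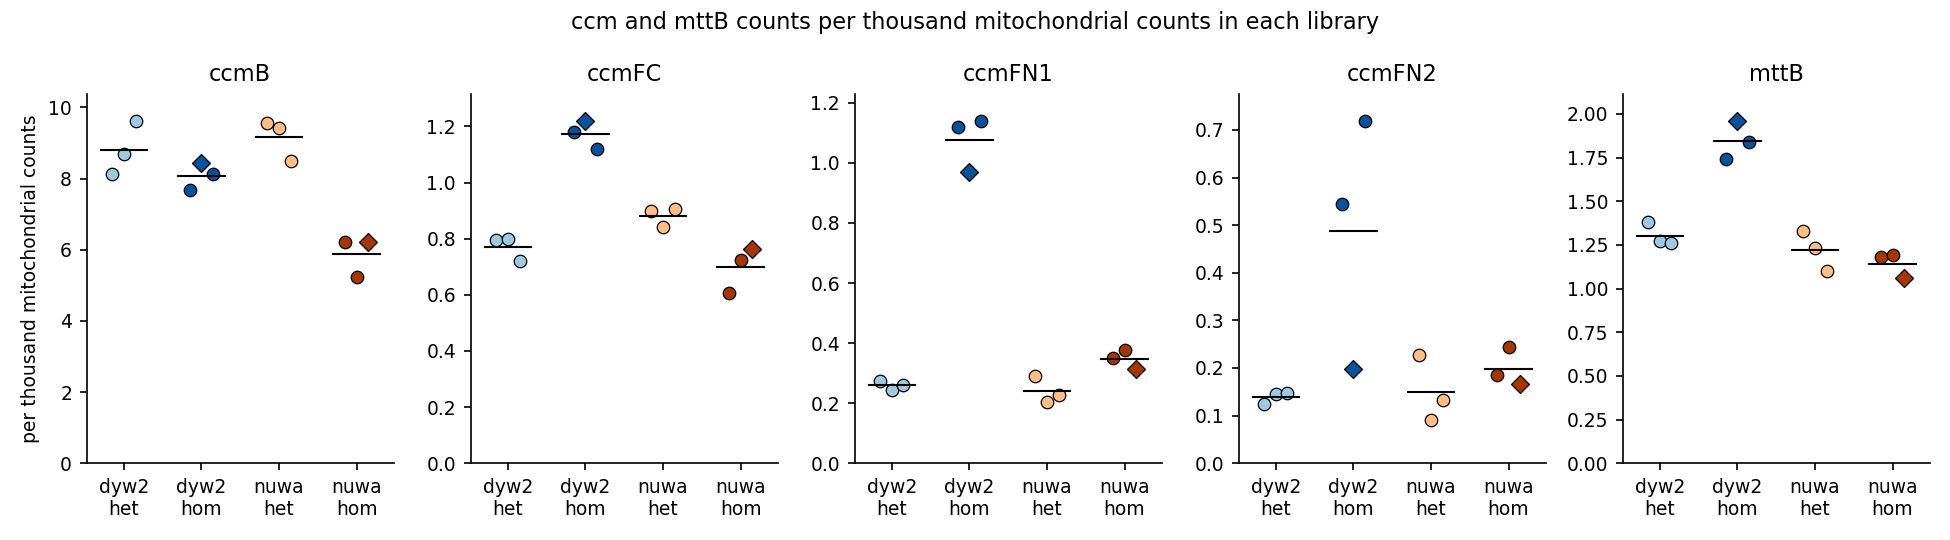
Counts of 5 genes per 1000 mitochondrial counts in each library, on linear axes that start at 0 and differ by gene. Points are libraries, lines are group means, and diamonds are the 2 libraries whose genotype field names the other mutant. ccmFN1 in the libraries titled dyw2 homozygous stands furthest from the rest, while ccmB is lowest in those titled nuwa homozygous.

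Ratios of counts within the set shifted too. ccmB has no copy, while reads of the other genes can be lost to theirs. The share of reads removed for equal scores was 5.94% to 6.06% in the libraries titled dyw2 homozygous and 2.54% to 3.39% in the others. Its part in these ratios was not tested, so they are ratios of counts and not of transcripts. For each 100 ccmB counts, the dyw2 heterozygous libraries held 3.36, 2.79 and 2.72 ccmFN1 counts and the homozygous ones 14.6, 11.5 and 14.1. In the nuwa libraries the ratio was 3.04, 2.17 and 2.68 in the heterozygous and 5.64, 7.20 and 5.01 in the homozygous. The homozygous groups thus stood above the heterozygous ones in both mutants, with no overlap. With 3 libraries against 3 an exact permutation test cannot go below p = 0.1, so these ratios are given without one. For mttB the ratio was 13.1 to 17.0 in the dyw2 heterozygous and 22.7 to 23.3 in the homozygous libraries, and 13.0 to 13.9 and 17.1 to 22.8 in the nuwa ones, again without overlap. The ccmFC ratio was 7.49 to 9.78 against 13.8 to 15.4 in the dyw2 libraries. In the nuwa libraries its ranges, 8.96 to 10.7 and 9.74 to 13.8, overlapped. How many other mitochondrial genes have ratios to ccmB that separate in this way was not counted. From the largest rise, ccmB was at place 60 of 76 mitochondrial genes in the dyw2 comparison and 71 in the nuwa one. A higher ratio to ccmB may therefore be usual for a mitochondrial gene.

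**Figure D5:**
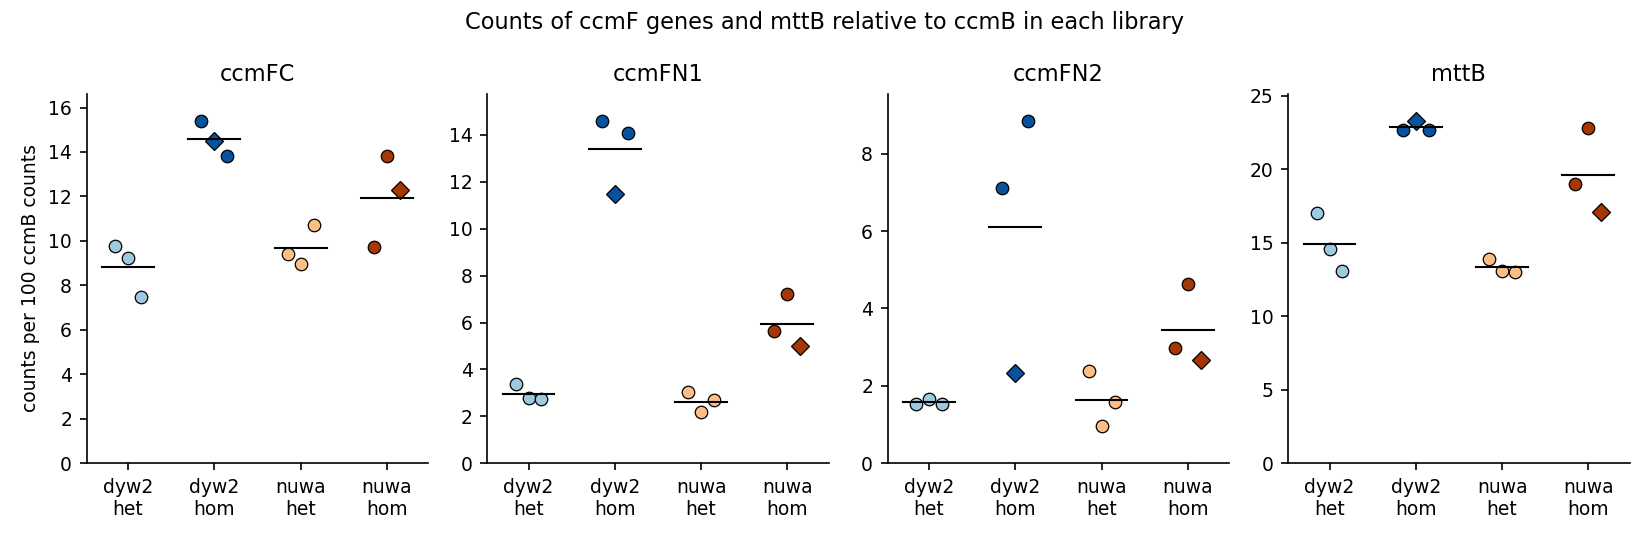
Counts of ccmFC, ccmFN1, ccmFN2 and mttB per 100 ccmB counts in each library, on linear axes that start at 0. Points are libraries, lines are group means, and diamonds are the 2 libraries whose genotype field names the other mutant. The ccmFN1 ratio is 11.5 to 14.6 in the libraries titled dyw2 homozygous and 2.17 to 3.36 in all heterozygous libraries.

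Gene models on chromosome 2 that cover the copies gave a mixed picture. AT2G07771, which covers the full copy of ccmC, had 0 counts in 11 libraries and 1 in dyw2 homozygous replicate 3, and AT2G07768 at the ccmFN2 copy had 0 in all 12. AT2G07681, which covers the ccmC copy with a single changed base, stood at 2.51, 2.24 and 2.51 CPM in the dyw2 heterozygous libraries and at 14.9, 12.8 and 15.5 CPM in the homozygous ones. That is a log2 fold change of 2.57 ± 0.14 (SE, edgeR adjusted p = 1.7e-07), within the range of the 5 mitochondrial genes, while in the nuwa comparison it was -0.08 ± 0.14 (edgeR adjusted p = 0.801). AT2G07815, which overlaps the ccmFC copy, had 1.54 ± 0.13 (SE, edgeR adjusted p = 2.37e-06) in the dyw2 comparison and 0.11 ± 0.13 (edgeR adjusted p = 0.67) in the nuwa one. Reads of a mitochondrial transcript and of its nuclear copy cannot be told apart where the sequences are the same, so the level of each of these models, and of the 4 measured mitochondrial genes with copies, is uncertain. The gene model AT2G07627 at the ccmFN1 copy was absent from the deposited counts, and no gene model was annotated at the mttB copy.

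Genes whose profile over the 12 libraries lay nearest to each of the 5 were found by the root mean square difference of log2 CPM, each gene centred on its own mean. For ccmB the nearest was AT2G07815 (0.127), followed by AT5G14105 (0.136) and YSL1 (AT4G24120, 0.156), the last a gene of the yellow stripe-like transporter family. For mttB they were AT2G07693 (0.107), ATMG00690 (0.116) and MGE1 (AT5G55200, 0.157), a co-chaperone of the GrpE family. For ccmFC they were AT2G07693 (0.157), mttB (0.167) and AT2G36930 (0.180), so mttB and ccmFC lay close to each other. ccmFN1 was nearest to AT2G07686 (0.198), AT2G07709 (0.203) and AT2G07717 (0.240), the last 2 annotated as pseudogenes of mitochondrial NADH dehydrogenase subunits. ccmFN2, the gene with the fewest counts, had no neighbour nearer than 0.400 (ATMG00660), with AT2G07783 (0.404) and AT2G07717 (0.405) next.

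Of 3 nuclear cytochrome c maturation genes, 2 rose in the dyw2 comparison. ABCI1 (AT1G63270), the CcmA-type ATPase of the transporter that holds CcmB, rose by a log2 fold change of 0.79 ± 0.17 (SE, edgeR adjusted p = 0.00168), and the haem chaperone CCME (AT3G51790) by 0.62 ± 0.15 (SE, edgeR adjusted p = 0.00417). CCMH (AT1G15220), which acts at the haem attachment step, was at -0.08 ± 0.16 (SE, edgeR adjusted p = 0.695). In the nuwa comparison the values of these 3 were -0.02, 0.38 and -0.12, and none was called. Of all genes, 30.1% rose and 32.8% fell between the dyw2 groups, and 1.54% rose between the nuwa groups.

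Among the c-type cytochromes and their partners in complex III, 3 of 6 genes rose and 1 fell in the dyw2 comparison, where 30.1% of all genes rose and 32.8% fell, so these counts are near the background. Cytochrome c itself is encoded by CYTC-1 (AT1G22840) and CYTC-2 (AT4G10040), which rose by 0.72 ± 0.15 and 0.44 ± 0.15 on the log2 scale (SE, edgeR adjusted p = 0.00152 and 0.0227). The iron-sulfur subunit gene AT5G13430 rose by 0.34 ± 0.12 (SE, edgeR adjusted p = 0.0268), and its relative AT5G13440 was at 0.24 (edgeR adjusted p = 0.144). One of the cytochrome c1 genes, AT5G40810, fell by 0.53 on the log2 scale (SE 0.14, edgeR adjusted p = 0.00512), and the other, AT3G27240, was at -0.12 (edgeR adjusted p = 0.371). None of the 6 was called in the nuwa comparison, where 1.54% of all genes rose and their log2 fold changes lay between 0.08 and 0.31. AT5G43680, listed beside mttB, fell by 0.40 on the log2 scale (SE 0.13, edgeR adjusted p = 0.0181) in the dyw2 comparison and was at 0.03 in the nuwa one.

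Of 8 nuclear genes listed as factors that edit, splice or trim transcripts of these mitochondrial genes, 6 rose and 1 fell in the dyw2 comparison, beside 30.1% and 32.8% of all genes. MEF7 (AT5G09950), a mitochondrial editing factor, rose by 3.37 ± 0.48 on the log2 scale (SE, edgeR adjusted p = 9.15e-05), from 3 to 10 counts in the heterozygous libraries to 38 to 51 in the homozygous ones. The pentatricopeptide repeat genes AT3G02330 and AT1G17630 rose 4.3-fold and 4.21-fold (edgeR adjusted p = 0.000102 and 0.000103). On the log2 scale MEF11 (AT4G14850) and SLO2 (AT2G13600), both editing factors, rose by 1.76 ± 0.35 and 1.44 ± 0.27, and WTF9 (AT2G39120), a splicing factor of ccmFC, by 0.95 ± 0.23 (SE). RPF3 (AT1G62930), an RNA processing factor that acts on ccmC transcripts, fell by 1.13 on the log2 scale (SE 0.17, edgeR adjusted p = 0.000139). Its counts were 160, 144 and 177 in the heterozygous and 33, 69 and 47 in the homozygous libraries, which held fewer counts in all. MEF19 (AT3G05240) was at 0.80 (edgeR adjusted p = 0.0987). In the nuwa comparison, where 1.54% of all genes rose, none of the 8 was called, with log2 fold changes from -0.36 (RPF3) to 1.06 (AT3G02330, edgeR adjusted p = 0.101).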

How the data were processed

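Total RNA of 12 libraries in 4 groups of 3 was analysed. The authors deposited raw read counts for each gene model. Per the file headers, their counter dropped reads that aligned equally well at a second place. TopHat2, Bowtie2 and TAIR10 are named in the submitters' processing notes. The sources used here give no versions and no mismatch allowance and do not say whether counting used the strand, so reads of antisense or overlapping genes may not have been separated. An edited base is a mismatch to the genome, and its part in the counts was not tested. Totals were 13329334 to 97804029 counts, and intervals and floors cover counting error only. Header totals matched the sums of counts.

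Groups came from the titles. Counts were tested with edgeR 4.0.16 (R 4.3.3, quasi-likelihood F-test, TMM) in one model of 4 groups with 8 residual degrees of freedom. Filtering (filterByExpr, minimum count 10, total 15) kept 21213 genes, and p-values were adjusted over all of them by Benjamini-Hochberg at a threshold of 0.05. SE is the log2 fold change divided by the square root of F. A second fit used the mitochondrial total as library size, and its p-values were adjusted over all genes too. CPM and RPKM use TMM-scaled totals and the deposited lengths. For ccmFC and mttB these were 1359 and 861 bases, beside RefSeq coding lengths of 1329 and 843. DESeq2 1.42.0, other scalings, filters, a replicate block, a flower bud covariate (mean log2 CPM), thinning and libraries left out were alternatives. The edgeR step was tested on simulated data. Copies were found by sequence match to TAIR10.1 (blastn, and exact windows of 100 bases), and the RefSeq names were used.

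The members and gene lists were chosen with earlier results of these data known. Named were all 6 genes, gene models at their copies, the 3 nearest profiles of each, every gene of the pathway lists, and the called RNA factors. Neighbours of each gene in the mitochondrial genome were to be named too but are not reported, because the identifiers of the counts and of the annotation could not be joined there. MEF19, the uncalled factor, was named after its value was seen. The lists come from general knowledge of the pathway.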

Additional observations from a re-analysis of the deposited data

Results flagged for a closer look

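For all 5 tested genes the change differed between the mutants, by a test of the difference itself (edgeR quasi-likelihood test, adjusted over all genes). In that test 19.2% of all genes and 78.9% of the mitochondrial genes were called with a larger change in dyw2, so such a call was usual for a mitochondrial gene. The dyw2 log2 fold change exceeded the nuwa one by 1.56 for ccmB, 2.01 for ccmFC, 2.57 for ccmFN1, 2.43 for ccmFN2 and 1.65 for mttB. In the dyw2 comparison every homozygous library was above every heterozygous one for each of the 5 genes. In the nuwa comparison this held for ccmFC, ccmFN1, ccmFN2 and mttB, and not for ccmB. How many other genes separated in this way was not counted, so it may be usual for mitochondrial genes. Of those, 96.1% were called higher in the dyw2 comparison and 28.9% in the nuwa one. The libraries titled dyw2 homozygous also had a lower leaf marker level (2250 to 3590 CPM) than those titled nuwa homozygous (18700 to 25300), and the part of this in the differences was not tested.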

How the results depend on the processing

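Over 795 fold changes under alternatives, 733 kept their direction and side of the threshold, 48 fell below it, 3 passed it and 11 changed sign. Of 159 counts of genes called, 128 equalled the count reported, 29 were lower and 2 higher (nuwa, 3 under DESeq2 and 3 without both libraries of conflicting genotype). Groups taken from the genotype field removed the most calls: 0 of 5 genes were called for dyw2, 0 for nuwa, 0 for their difference, 2 relative to the mitochondrial total for dyw2 and 0 for nuwa, where mttB turned to 0.24. In the nuwa comparison, with 2 genes called, 1 was called with a replicate block (mttB adjusted p = 0.0629), and 0 with the flower bud covariate, 0 after thinning to the smallest library and 0 with the groups compared alone in the fit. Leaving out 1 library gave 1 to 2. Relative to the mitochondrial total, with 3 called for nuwa, 1 was called with the covariate, 1 after thinning and 1 with the groups compared alone, and 1 to 3 with a library left out. Deviations from the group means correlated at -0.01 to 0.17 between same-numbered libraries. Differently numbered libraries were not compared, so these values do not settle whether the replicate numbers pair the samples. The replicate block also ended the call of ccmFC relative to the total in nuwa (edgeR adjusted p = 0.0625). Under the median ratio over mitochondrial genes, ccmFC turned to -0.019 and mttB to -0.12 in dyw2. Small differences turned sign with a library left out: ccmB in nuwa ran from -0.062 to 0.181, and between the heterozygous groups mttB ran from -0.05 to 0.048, ccmFN1 from -0.076 to 0.157 and ccmFN2 from -0.44 to 0.22. Between those groups mttB was -0.018 with the covariate and -0.29 after thinning, where ccmFN1 was -0.59. The causes were not tested. Depth limits ccmFN2 most, with 26 to 62 counts outside the libraries titled dyw2 homozygous, and ccmC had 0 counts, for a cause that was not tested.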
